A study of Rattus norvegicus with 22 samples.

Results

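The immediate early genes Fos, Fosb, Jun, Junb, Egr1 and Nr4a1 and the stress genes Hspb1, Hspa8 and Hmox1 were followed by every probe set whose platform symbol is one of these 9 names. The table held 15 such probe sets among 1050, for 6 of the 9 genes and of 643 genes named on the array table. Egr1 had 4 probe sets, Fos 3, Hspb1 3, Nr4a1 2, Hmox1 2 and Jun 1, and Fosb, Junb and Hspa8 were not analysed here. The RNA came from the ventral spinal cord of neonatal Wistar rats of postnatal days 0 to 4 and was read on Affymetrix rat neurobiology arrays. CIN arrays (n = 7) held commissural interneurons with descending axons and MN arrays (n = 7) held motoneurons. Both kinds of cell had been filled with rhodamine dextran through their cut axons, at the ventral roots of the second lumbar segment (L2) for MNs and at the cut face of a hemi-transection between L3 and L4 for CINs. MIX arrays (n = 8) held random cells of the ventral L2 sections and served as the control. The labels name no drug treatment and no genetic change. The labelling incubation of about 3 h at room temperature in oxygenated Ringer preceded snap freezing, so every labelled cell had gone through axon section and incubation before its RNA was fixed. Each array came from a separate animal and from 50 to 250 laser-dissected cells, whose RNA was amplified in 2 rounds.

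Immediate early genes are switched on within minutes of neuronal activity, growth factor or injury signals, without new protein synthesis, and their transcripts decay quickly. Most of them encode transcription factors: Fos and Jun proteins pair to form AP-1, Egr1 is a zinc finger factor that binds GC-rich sites, and Nr4a1 (Nur77) is an orphan nuclear receptor. Heat shock genes answer protein damage through heat shock factor. Hspb1 encodes the small heat shock protein Hsp27, a chaperone that is well known in motoneurons and sensory neurons and rises after axon injury, whereas Hmox1 encodes the inducible haem oxygenase, a marker of oxidative stress.

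Within the table the 6 measured genes lie, in the rat assembly GRCr8, at chr6:110852188-110855054 (Fos), chr5:115009900-115012993 (Jun), chr18:26737078-26740877 (Egr1), chr7:134247153-134268044 (Nr4a1), chr12:26430640-26432301 (Hspb1) and chr19:13452365-13479823 (Hmox1). The 250 bases that precede the start of Hspb1 are printed because of a difference between CINs and MNs described below. That difference was called in 1 of the 3 Hspb1 probe sets, and no relation of it to these bases was tested. They cover chr12:26432302-26432551 on the minus strand (RefSeq, GRCr8), and the capitals mark matches to GAANNTTC, a pair of inverted heat shock units.

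Hspb1: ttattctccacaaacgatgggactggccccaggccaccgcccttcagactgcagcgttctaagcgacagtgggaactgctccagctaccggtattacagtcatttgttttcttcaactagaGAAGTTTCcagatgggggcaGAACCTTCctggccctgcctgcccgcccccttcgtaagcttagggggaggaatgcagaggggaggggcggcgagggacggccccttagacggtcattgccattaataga

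The 2 matches lie at -129 to -122 and -109 to -102 from the start site, and 8.59% of 33469 rat promoters of the same length (with the first 50 transcribed bases) hold at least 1 such match on either strand. GAANNTTC was chosen after this window had been read, and the canonical heat shock element of 3 units, which 0.798% of promoters hold, was not in it. Promoters of Egr1 and Nr4a1 were read in the same way. That of Egr1 held 2 CArG boxes, the serum response motif found in 1.64% of promoters, at -105 to -96 and -83 to -74. That of Nr4a1 held 1 match to the EGR motif GCGNGGGCG, found in 4.98% of promoters, at -73 to -65. The CRE (TGACGTCA, 1.83% of promoters) and AP-1 (TGANTCA, 7.33%) motifs had no match in the windows of Egr1, Nr4a1 or Hspb1. These are matches of letters on both strands and say nothing of binding.

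The values are Li-Wong signal summaries on a linear scale, and fold changes and tests use their log2. The array medians lay between 43.5 and 50.9 over the 22 arrays, so that several probe sets below sit near the middle of the table. The paper read signals of the glial markers Gfap and Mbp within or below this range as no expression. Medians over the 22 arrays also lay there for Jun (49.0), Nr4a1 U17254_at (41.5), both Hmox1 probe sets (30.7 and 49.0) and Fos X06769cds_at (50.5). The same held for Egr1 M18416_at, U75398_s_at and rc_AI176662_s_at (30.0, 34.6 and 38.4). Whether these probe sets detect their transcripts was not tested. Motoneuron marker sums (Slc18a3, Calcb and Nefh, 3 of 10 listed markers) ran from 6603 to 8859 on MN, from 851 to 2513 on CIN and from 3462 to 7056 on MIX arrays, and Slc32a1, the vesicular transporter of inhibitory neurons (1 of 5), from 352 to 762 on CIN, 35.2 to 366 on MN and 187 to 580 on MIX arrays. Astrocyte markers (Slc1a2, Slc1a3, S100b, Gja1 and Apoe, 5 of 9) summed to 5245 to 8086 on CIN, 3295 to 5783 on MN and 3334 to 8472 on MIX arrays. The paper lists Apoe among its neuron-related genes higher in CINs. Gfap is not in the sum, and the paper reports it as unchanged between CINs and MNs. The CIN and MN arrays numbered 1 and 2 stood apart. After removal of the group means they correlated with one another at r of 0.296 to 0.825 over all probe sets, against -0.482 to 0.051 with arrays 3 to 7 of the other group. Their log2 ratio of 3′ to 5′ beta-actin signal was also lower, at 1.64 to 2.00 (CIN) and 1.60 to 1.75 (MN) against 2.75 to 3.42 and 2.78 to 3.30 on the others, and so was that of MIX arrays 1 and 2 (1.78 to 2.32 against 2.60 to 4.18). The ratio of Gapdh ran the other way on the labelled cells, at 4.14 to 4.50 on MN and 2.10 to 2.57 on CIN arrays 1 and 2 against 1.13 to 1.86 and 1.23 to 2.07, while on MIX arrays 1 and 2 (1.33 to 1.63) it lay within the range of the others (-0.15 to 1.78). MN arrays 1 and 2 also came from the most cells, 250 and 230, against 55 to 115 on the other MN arrays. Cell number and array number therefore cannot be told apart on MN arrays. CIN arrays 1 and 2 held 60 and 75 cells, within the 50 to 100 of their group. Where CIN or MN arrays 1 and 2 were highest, the difference is also given without the arrays of those numbers in all groups.

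**Figure D1:**
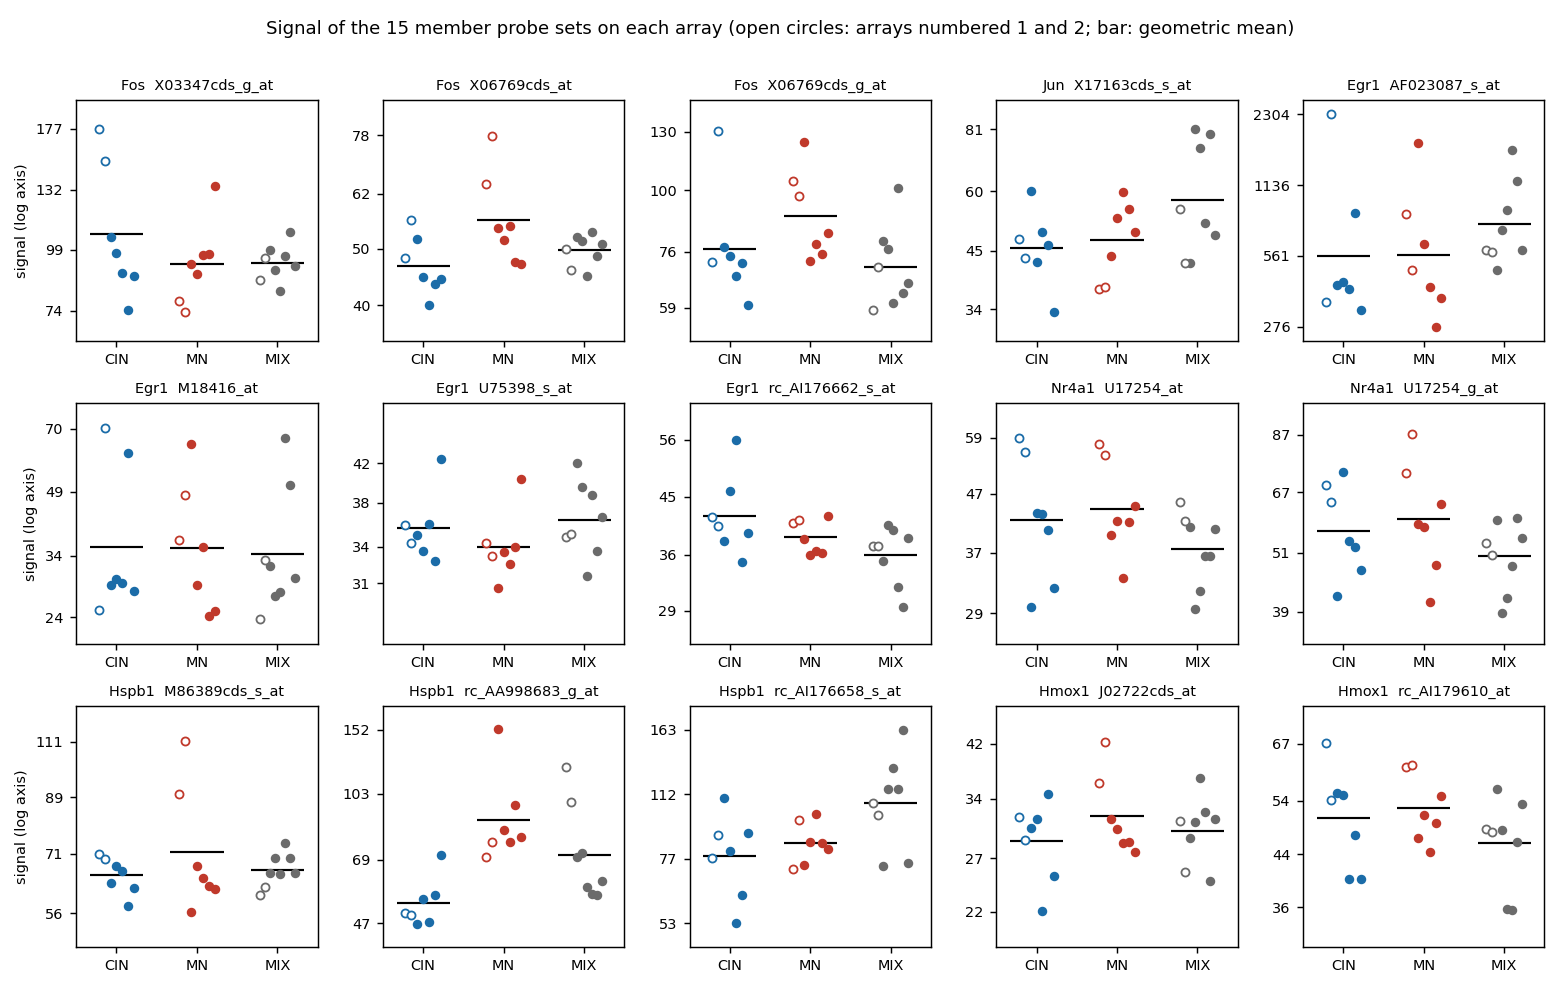
Signal (linear Li-Wong summary, log axis) of each of the 15 probe sets on the 7 CIN, 7 MN and 8 MIX arrays, with 1 circle per array, open for arrays numbered 1 and 2, and a bar at the geometric mean. Egr1 AF023087_s_at spans 276 to 2304, with CIN 2, MN 3 and MIX 6 the highest of their groups. Hspb1 rc_AA998683_g_at is the panel in which CIN and MN arrays are nearly separate.

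The first comparison asked whether the genes of cellular activation differ between the 2 labelled cell types. Both took up the same tracer through cut axons, but MNs at the ventral roots and CINs at the hemi-transected cord. Cell type and site of the cut therefore cannot be told apart in any difference between them. A single probe set of the 15 passed the test, Hspb1 rc_AA998683_g_at, and it was higher in MNs (limma with Benjamini-Hochberg adjustment over the 1050 probe sets, called at 0.1). No probe set of Fos, Jun, Egr1, Nr4a1 or Hmox1 was called. Of all probe sets 3.81% were called, 1.43% as higher in MNs and 2.38% as higher in CINs, so that 1 call among 15 is near the background. At an unadjusted p under 0.05 the count was 2 of 15, against 10.9% of all probe sets. Of the 15 differences 11 were negative (lower in CINs) and 4 positive, with a median log2 difference of -0.07 against -0.03 over all probe sets.

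Hspb1 rc_AA998683_g_at read 49.9, 49.3, 46.8, 54.5, 47.3, 55.6 and 70.8 on CIN arrays 1 to 7. On MN arrays 1 to 7 it read 70.0, 76.8, 152, 82.8, 76.8, 96.4 and 79.0. In none of the 15 probe sets were CIN and MN arrays fully separate, against 1.62% of all probe sets. The highest CIN array of this one (number 7) passed the lowest MN array (number 1) by a small margin, and the other 6 CIN arrays lay below all MN arrays. The log2 difference, CIN minus MN, was -0.73 (SE 0.16, 95% interval -1.07 to -0.39), a 1.65-fold higher signal in MNs, with an adjusted p of 0.0153 by limma and rank 25 of 1050. The study lists this probe set among the genes it chose on these same arrays, so its direction is not independent evidence. The log2 difference was -0.79 without the arrays numbered 1 and 2 (limma adjusted p = 0.0383). It was -0.59 without MN array 3, the highest of the group (adjusted p = 0.0056). The CIN median of this probe set, 49.9, lay within the range of the array medians (43.5 to 50.9). The paper states that its subtraction of a universal minimum raises expression ratios. With 32 added before the log2 the difference was -0.50 (limma adjusted p = 0.0269). In dissected cells a lower signal can reflect fewer cells of a type or less RNA per cell, which cannot be told apart here. Over the 22 arrays this probe set followed the motoneuron marker sum (Pearson's r = 0.692, Spearman's rho = 0.775, adjusted permutation p of r = 0.00945 over 21 relations). The r was 0.662 without the 2 arrays farthest from the median of that sum and 0.274 after removal of the group means. That sum itself separates MN from CIN arrays, so the relation over all arrays largely repeats the difference above and adds no independent evidence.

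The other 2 probe sets of Hspb1 gave no such difference. M86389cds_s_at ran from 57.6 to 71.0 (median 66.2) on CIN and from 56.4 to 111 (median 64.5) on MN arrays. Its highest values, 90.2 and 111, were those of MN arrays 1 and 2, and the log2 difference was -0.13 (interval -0.43 to 0.16, limma adjusted p = 0.754), or 0.02 without the arrays numbered 1 and 2. rc_AI176658_s_at ran from 53.2 to 110 (median 80.7) on CIN and from 72.5 to 100.2 (median 84.4) on MN arrays, so the groups overlapped widely, and the log2 difference was -0.11 (interval -0.42 to 0.20, adjusted p = 0.809). The gap of rc_AA998683_g_at to the other probe sets was tested on the 14 arrays by an exact permutation test with 3432 splits, a test chosen after the values were seen. Its CIN minus MN difference stood at -0.62 on the log2 scale from that of rc_AI176658_s_at (two-sided exact p = 0.0105, adjusted p = 0.0210) and at -0.59 from that of M86389cds_s_at (exact p = 0.0344, adjusted p = 0.0344). The test was made on probe sets whose differences were already known, so it describes their gap and adds no independent evidence. All 3 differences had the same sign, and those of the other pair were alike in size. Which part of the transcript each probe set reads was not examined, since no probe sequences were used.

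Fos, the partner of Jun in AP-1, had 3 probe sets and none was called. X06769cds_at ran from 40.1 to 55.9 (median 44.7) on CIN and from 47.1 to 77.7 (median 54.3) on MN arrays. It was the second member with an unadjusted p under 0.05 (0.0474), with a log2 difference of -0.26 (SE 0.12, interval -0.52 to -0.003, limma adjusted p = 0.439), and its highest values, 64.4 and 77.7, were again those of MN arrays 1 and 2. X06769cds_g_at ran from 59.7 to 130 (median 72.5) on CIN and from 73.0 to 124 (median 82.5) on MN arrays, with a log2 difference of -0.21 (interval -0.57 to 0.14, adjusted p = 0.716). X03347cds_g_at ran the other way, from 74.1 to 177 (median 97.7) on CIN and from 73.6 to 135 (median 92.6) on MN arrays, with a log2 difference of 0.20 (interval -0.20 to 0.61, adjusted p = 0.727). CIN arrays 1 and 2 (177 and 152) were its highest 2 of all 22 arrays, and without the arrays of those numbers the difference was -0.16. Without the arrays of those numbers X06769cds_at gave -0.19 (adjusted p = 0.506) and X06769cds_g_at -0.28 (adjusted p = 0.506). The 3 Fos probe sets thus did not share a direction over all arrays, and no difference passed the test.

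Jun, measured by X17163cds_s_at, ran from 33.5 to 60.2 (median 46.4) on CIN and from 37.5 to 59.9 (median 49.3) on MN arrays (log2 difference -0.05, interval -0.35 to 0.24, limma adjusted p = 0.898). The 2 probe sets of Nr4a1 gave log2 differences of -0.07 (U17254_at, interval -0.42 to 0.29) and -0.08 (U17254_g_at, interval -0.44 to 0.29). U17254_at was highest on CIN arrays 1 and 2 (59.0 and 55.8) and MN arrays 1 and 2 (57.6 and 55.1), and no other array exceeded 45.5. Without the arrays of those numbers the differences of Nr4a1 were -0.11 (U17254_at) and -0.0057 (U17254_g_at). Hmox1 gave -0.14 (J02722cds_at, interval -0.40 to 0.12) and -0.05 (rc_AI179610_at, interval -0.32 to 0.22), or -0.05 and -0.06 without the arrays numbered 1 and 2, and Jun then gave -0.19. The intervals of Jun, Nr4a1 and Hmox1 reach together from -0.44 to 0.29 on the log2 scale.

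**Figure D2:**
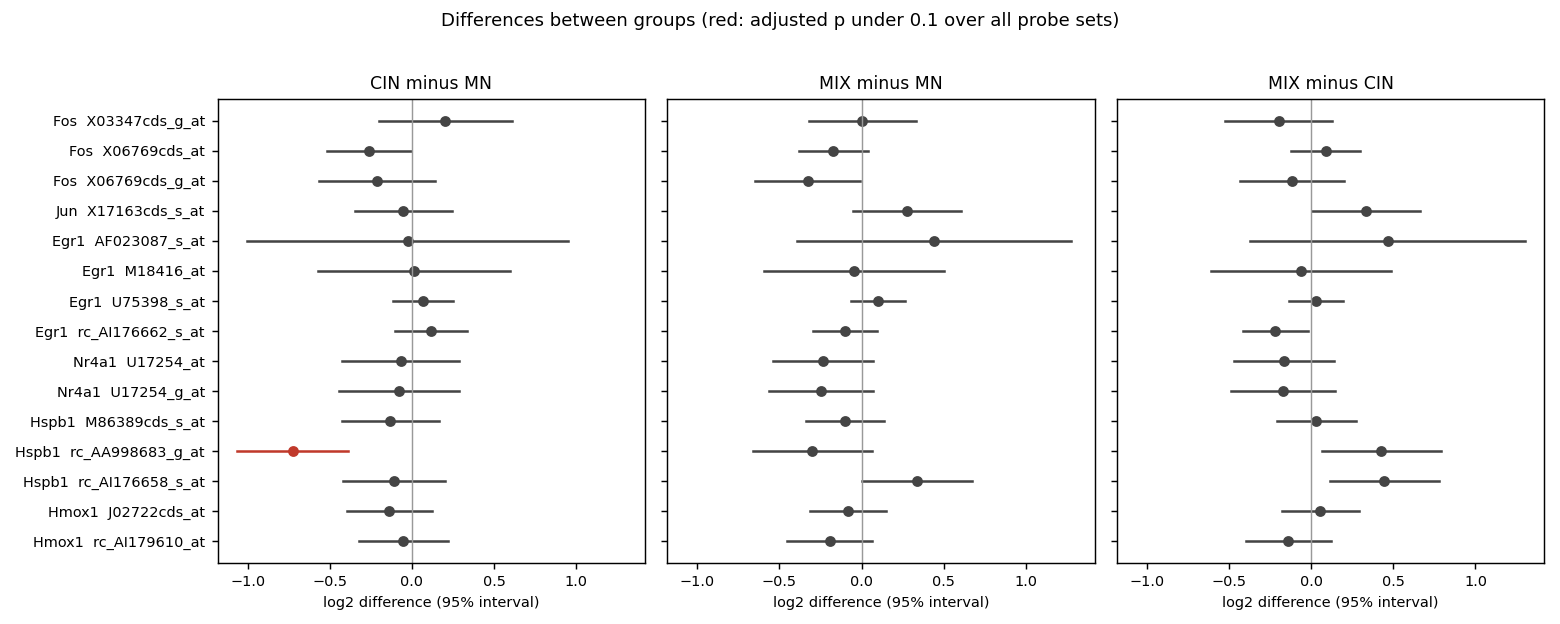
Log2 difference of each probe set (points) with its 95% interval (bars) for CIN minus MN, MIX minus MN and MIX minus CIN, red where the limma adjusted p over 1050 probe sets is under 0.1. Hspb1 rc_AA998683_g_at in CIN minus MN, at -0.73, is the single red point, and Egr1 AF023087_s_at has the widest interval in each panel.

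Egr1 AF023087_s_at differed from the other member probe sets in how far it varied between arrays. Each array was a separate animal, dissection and amplification, which cannot be told apart. Its median over the 22 arrays was 590, and the next highest member median was 94.0 (Fos X03347cds_g_at). The part of signal level in the spread was not tested. AF023087_s_at read 353, 2304, 419, 431, 405, 859 and 328 on CIN arrays 1 to 7. On MN arrays 1 to 7 it read 854, 485, 1734, 630, 411, 276 and 367. On MIX arrays 1 to 8 it read 594, 586, 487, 724, 889, 1610, 1182 and 594. Each group therefore held 1 array or more far above the rest: CIN array 2 was 5.60-fold above the median of the other CIN arrays, MN array 3 was 3.87-fold above that of the other MN arrays and MIX array 6 was 2.71-fold above that of the other MIX arrays. Over the 22 arrays the range was 8.33-fold, and the residual SD around the group means was 0.84 on the log2 scale, rank 44 of 1050, against a median of 0.28 over all probe sets. Between CIN and MN the mean log2 difference was -0.02 (SE 0.46, interval -1.0 to 0.95, limma adjusted p = 0.997), and -0.23 without the arrays numbered 1 and 2. The interval is wide enough to hold a change of about 2-fold in either direction.

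M18416_at, a second probe set of Egr1, ran from 23.7 to 70.4 over the 22 arrays, with a residual SD of 0.54 (rank 153). Its highest arrays were CIN 2 (70.4), MIX 6 (66.2), MN 3 (64.0), CIN 6 (61.2) and MIX 7 (51.0), and 4 of these 5 were also among the 5 highest of AF023087_s_at. The pair correlated over the 22 arrays with r = 0.804 and rho = 0.635 (adjusted permutation p = 0.0016 and 0.0496 over 105 pairs), with r = 0.685 without the 2 arrays farthest from the median and r = 0.817 without the arrays numbered 1 and 2. Within groups r was 0.942 (CIN), 0.793 (MN) and 0.808 (MIX). The remaining 2 probe sets of Egr1 were nearly flat: U75398_s_at ran from 30.6 to 42.5 (residual SD 0.13, rank 1037) and rc_AI176662_s_at from 29.4 to 56.1 (residual SD 0.17, rank 970). On CIN array 2, MN array 3 and MIX array 6 they read 34.3, 30.6 and 38.8 and 40.2, 38.3 and 31.7, respectively. The large array-to-array range of Egr1 thus rests on 2 of its 4 probe sets. In CIN minus MN the log2 difference was 0.01 for M18416_at, 0.07 for U75398_s_at and 0.12 for rc_AI176662_s_at, none of them called.

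Fos X06769cds_g_at was highest on CIN array 2 (130) and MN array 3 (124), which were the highest arrays of Egr1 in the same groups, and on the MIX arrays it was highest on number 6 (101), again the highest of Egr1. It correlated with Egr1 M18416_at with r = 0.666 and rho = 0.482 (adjusted permutation p = 0.0174 and 0.258), with r = 0.502 without the 2 farthest arrays and 0.525 without the arrays numbered 1 and 2. With Egr1 AF023087_s_at r was 0.560 and rho 0.232 (adjusted p = 0.0544 and 0.634), and r fell to 0.175 without the 2 arrays farthest from the Egr1 median, CIN 2 and MN 3, so the relation over all 22 arrays rests on those. Without the arrays numbered 1 and 2 r was 0.453, after removal of the group means 0.751, and within groups 0.894 (CIN), 0.822 (MN) and 0.384 (MIX), where CIN 2 and MN 3 are again the highest arrays of their groups. MIX array 7, with an Egr1 signal of 1182, read 63.1 for this Fos probe set, and MN arrays 1 and 2 read 104 and 97.3 with Egr1 signals of 854 and 485. The other Fos probe sets did not follow Egr1 past the threshold. Fos X06769cds_g_at was also related to the 3′ to 5′ ratio of Gapdh (r = 0.547, rho = 0.511, adjusted permutation p of r = 0.0961 over 21 relations), and the part of that ratio in the relation with Egr1 was not tested. Egr1 AF023087_s_at itself gave an r of at most 0.186 in size with astrocyte, oligodendrocyte, vessel and motoneuron marker sums, the number of cells and the 3′ to 5′ ratios (adjusted p = 0.996).

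**Figure D3:**
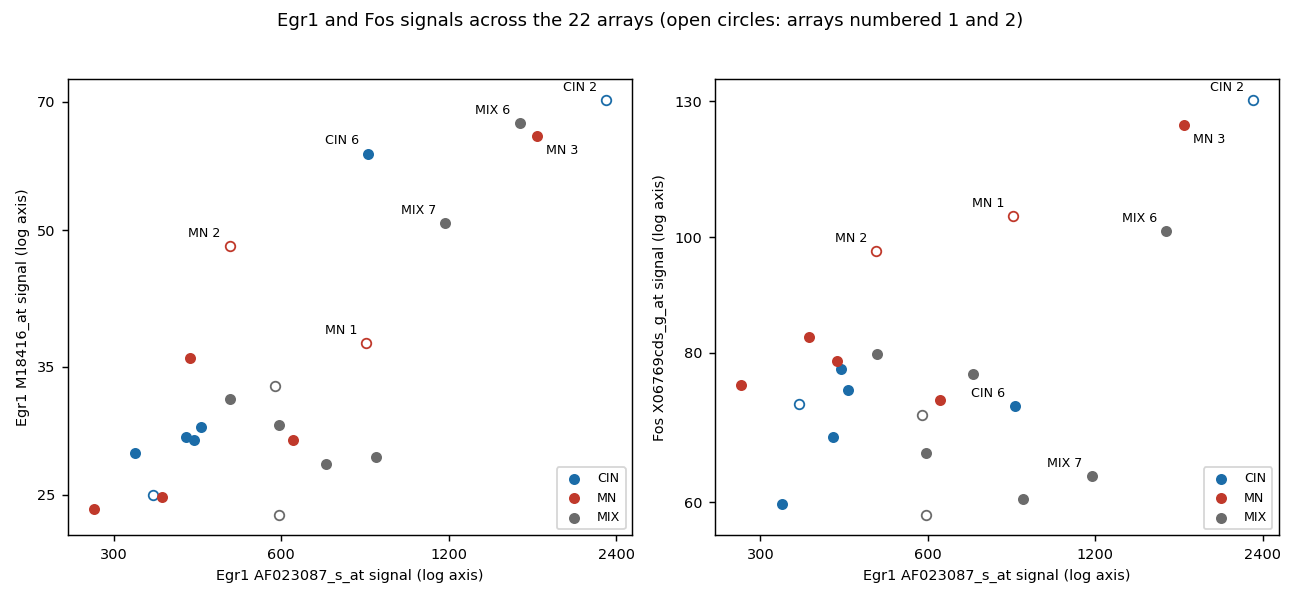
Signal of Egr1 M18416_at (left) and Fos X06769cds_g_at (right) against Egr1 AF023087_s_at, all on log axes, with 1 circle per array coloured by group and open for arrays numbered 1 and 2. CIN 2, MN 3 and MIX 6 lie at the upper right of both panels, and MIX 7 is high on Egr1 (1182) but low on Fos (63.1).

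Over all 105 pairs of the 15 probe sets, 14 were pairs of the same gene and 3 of these correlated at an adjusted permutation p under 0.1: the pair of Egr1 given above, U17254_at with U17254_g_at of Nr4a1 (r = 0.853, rho = 0.808, 0.828 without the arrays numbered 1 and 2) and X06769cds_at with X06769cds_g_at of Fos (r = 0.612, rho = 0.727). No pair of Hspb1 or Hmox1 probe sets did. Hspb1 rc_AA998683_g_at, the probe set called between CIN and MN, gave r = -0.208 with M86389cds_s_at (adjusted permutation p = 0.688). After removal of the group means that r was -0.521, and within groups -0.426 (CIN), -0.576 (MN) and -0.806 (MIX), values not tested. With rc_AI176658_s_at its r was 0.014. Of the 91 pairs of different genes 11 passed, 8 with a positive r. The share of passing pairs among all probe sets of the table was not computed, so these counts have no background beside them. Hspb1 rc_AI176658_s_at and Jun varied together over the 22 arrays (r = 0.625, rho = 0.577, adjusted permutation p = 0.0284 and 0.108). The r was 0.605 without the 2 farthest arrays, 0.697 without the arrays numbered 1 and 2 and 0.506 after removal of the group means. Within groups it was 0.041 (CIN), 0.418 (MN) and 0.791 (MIX). Both probe sets of Nr4a1 ran against Jun (r = -0.579 and -0.558, adjusted p = 0.0498 and 0.0544, and -0.470 and -0.468 without the arrays numbered 1 and 2). Hmox1 rc_AI179610_at followed both probe sets of Nr4a1 (r = 0.659 and 0.642, rho = 0.662 and 0.619, adjusted p of r = 0.0174 and 0.0245), and r was 0.448 and 0.346 without the arrays numbered 1 and 2.

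Other pairs rested on few arrays. Hspb1 M86389cds_s_at with Fos X06769cds_at gave r = 0.767 and rho = 0.415 (adjusted permutation p = 0.0174 and 0.374), but r = 0.199 without the 2 farthest arrays, MN 1 and 2, and 0.152 without those numbered 1 and 2. Likewise Hmox1 J02722cds_at with Fos X06769cds_at fell from r = 0.624 to 0.301, and Hspb1 M86389cds_s_at with Nr4a1 U17254_g_at from 0.562 to -0.078, without the arrays numbered 1 and 2. Hspb1 rc_AI176658_s_at with Egr1 rc_AI176662_s_at gave r = -0.573, with -0.092 without the 2 farthest arrays (MIX 7 and CIN 5) and -0.570 without the arrays numbered 1 and 2. Each of these relations was weaker without the arrays named for it, the last one without MIX 7 and CIN 5 but not without those numbered 1 and 2. All pairs share the same 22 arrays, and probe sets of the same gene share its transcript. The correlated pairs of Nr4a1 and of Fos also share the first part of their probe set names (U17254 and X06769cds). Whether they share probes was not examined.

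**Figure D4:**
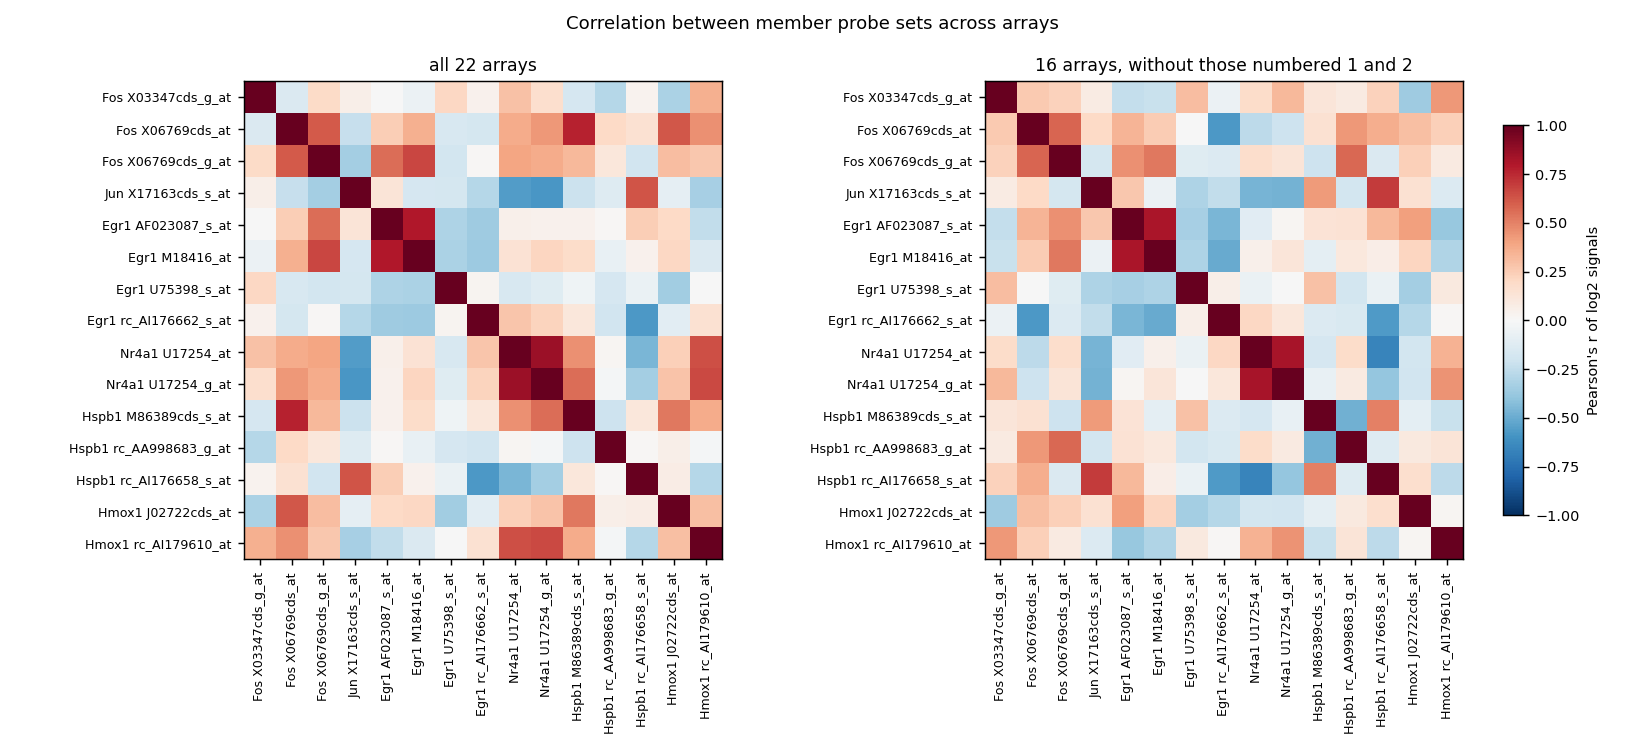
Pearson's r of log2 signals between the 15 probe sets, over all 22 arrays (left) and over the 16 arrays without those numbered 1 and 2 (right), red for positive and blue for negative. The red squares of Egr1 AF023087_s_at with M18416_at (0.804 and 0.817) and of the Nr4a1 pair (0.853 and 0.828) stay in both panels, and that of Hspb1 M86389cds_s_at with Fos X06769cds_at (0.767 and 0.152) does not.

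The MIX arrays were next set against each labelled population, as the control of random ventral cells. By the paper's account these cells include both CINs and MNs, so MIX is not a separate population. The paper does not say which axons were cut in the cords of the MIX arrays. No member was called in either comparison. Between MIX and MN 0.952% of all probe sets were called and 2 of the 15 members had an unadjusted p under 0.05, against 11.8% of all. Between MIX and CIN 0.476% were called and 4 members had an unadjusted p under 0.05, against 7.14% of all. None of the 15 was fully separate between MIX and MN or between MIX and CIN arrays, against 0.19% of all probe sets in each. Both comparisons share the MIX arrays, so their values are given side by side only. The member differences ran from -0.33 to 0.44 (median -0.10, all probe sets -0.04) for MIX minus MN and from -0.22 to 0.47 (median 0.03, all probe sets -0.02) for MIX minus CIN.

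Hspb1 rc_AI176658_s_at ran from 74.0 to 163 (median 111) on MIX arrays. It was higher than on MN arrays by 0.34 on the log2 scale (SE 0.16, limma adjusted p = 0.412) and than on CIN arrays by 0.45 (SE 0.16, adjusted p = 0.414), and neither difference passed the test. Hspb1 rc_AA998683_g_at read 121, 97.7, 70.1, 71.9, 58.6, 56.1, 55.9 and 60.7 on MIX arrays 1 to 8, above the MN median of 79.0 on numbers 1 and 2 and below it on the others. Its log2 difference was -0.30 from MN (adjusted p = 0.437) and 0.43 from CIN (adjusted p = 0.541). Without the arrays numbered 1 and 2 it was -0.61 from MN (limma adjusted p = 0.134) and 0.19 from CIN (adjusted p = 0.792). The mean of MIX arrays thus lay between those of both labelled populations, and neither difference passed the test.

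Jun ran from 42.5 to 80.9 (median 53.3) on MIX arrays. Arrays 4, 5 and 7 (80.9, 73.8 and 79.2) exceeded all 14 CIN and MN arrays, and the other 5 lay among them. The log2 difference was 0.28 from MN (SE 0.16, limma adjusted p = 0.433) and 0.33 from CIN (SE 0.16, adjusted p = 0.679). For Egr1 AF023087_s_at it was 0.44 from MN (SE 0.40, adjusted p = 0.617) and 0.47 from CIN (SE 0.40, adjusted p = 0.944), or 0.64 and 0.87 without the arrays numbered 1 and 2, and the MIX median of 659 stood against 485 and 419 in MN and CIN. Fos X06769cds_g_at gave -0.33 (SE 0.15, adjusted p = 0.412) for MIX minus MN, and Egr1 rc_AI176662_s_at gave -0.22 (SE 0.10, adjusted p = 0.616) for MIX minus CIN. None of these passed the test.

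The wider gene families were read from 4 lists. Of 36 other immediate early and activity-regulated genes 7 were measured, by 9 probe sets, and 1 was called between CIN and MN: Nptx2 S82649_s_at, neuronal pentraxin 2, a secreted protein that gathers glutamate receptors at synapses, was higher in CINs by 0.91 on the log2 scale (SE 0.25, limma adjusted p = 0.0659). This call was lost, leaving 0 in the list, without CIN array 3, 4 or 5 or MN array 1. The second probe set of Nptx2, S82649_r_at, gave 0.31 (SE 0.30, adjusted p = 0.727). Nptx2 is among the genes that the study chose on these arrays, so its direction is not independent evidence. Of 16 kinases and transcription factors upstream of the immediate early genes 6 were measured (17 probe sets, median log2 difference CIN minus MN -0.15), of 24 other heat shock proteins and chaperones 5 (8 probe sets, -0.04) and of 24 other oxidative and cell stress genes 6 (7 probe sets, 0.10), and none of these was called. In both MIX comparisons 0 probe sets of the 4 lists were called by limma, with 3 (MIX and MN) and 5 (MIX and CIN) at an unadjusted p under 0.05.

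The probe sets of other genes whose log2 signal was most like the brightest probe set of each gene over the 22 arrays were named as a description. For Egr1 they were Fos X06769cds_g_at (r = 0.560) and Crh M54987_at, corticotropin releasing hormone (r = 0.551). For Jun they were Slc8a1 U04937_s_at (0.795) and Htr4 AJ011370_g_at (0.786), and for Nr4a1 they were Scnn1a X70521_at (0.794) and Nos2 U03699complete_seq_at (0.790). Hspb1 rc_AI176658_s_at was most like Vegfb AF022952_at (0.823) and Kcnn1 AF000973_s_at (0.729), Hmox1 rc_AI179610_at like Stk10 U33472_at (0.910) and Syngr1 U39549_g_at (0.885), and Fos X03347cds_g_at like Foxd3 L13202_f_at (0.741) and Nptx2 S82649_r_at (0.703). Of the 6 genes Egr1 thus had the lowest top correlation. Its closest match among probe sets with 1 gene symbol was 1 of the 3 Fos probe sets, little ahead of Crh. As given above, that r fell to 0.175 without CIN 2 and MN 3.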

How the data were processed

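RNA of laser-dissected cells from 22 animals was hybridized to 22 Affymetrix RN_U34 arrays (5 µg amplified RNA each). The authors subtracted a global background, applied quantile linear transformation and quantile projection normalization, summarized perfect match probes by Li-Wong in affy (version not given in the sources used here), subtracted a universal minimum and deposited linear signal intensity values of 1050 probe sets. No detection calls were used, so no probe set has a formal call of presence. Symbols came from the platform annotation: 961 probe sets had 1 symbol, 7 several and 82 none, and 955 of 961 matched RefSeq (GRCr8). Members and lists were chosen with earlier results of these data known. The named genes are all member probe sets, called probe sets of the 4 lists and the 2 most like probe sets per gene. Values were log2-transformed and tested with limma 3.58.1 (R 4.3.3), on 14 arrays for CIN against MN and with 3 group means over 22 arrays for MIX, two-sided, with Benjamini-Hochberg adjustment over 1050 probe sets. Correlations used 100000 permutations (scipy 1.17.1). Tested on simulated data, the CIN and MN fit recovered 64.2%, 94.0% and 98.5% of log2 changes of 0.5, 1 and 2, with 8.06% of its calls false, over 1050 probe sets. There 67, 67 and 66 probe sets were changed, a larger share than was called in the data. The simulated noise was normal and independent, without the shared deviations of arrays 1 and 2, so recovery in the data may be lower. The number of arrays, 7 or 8 a group, limits the precision. The alternatives changed offset, filter, normalization, prior, array weights, covariates, threshold and the arrays used.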

Additional observations from a re-analysis of the deposited data

Results flagged for a closer look

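Arrays far from the others of their group were looked for in the 45 combinations of 15 probe sets and 3 groups, by the gap to the nearest array over the range (Dixon), on the linear signals. Chance flags about 1 in 20 such groups, or 2.25 of 45, and 8 were found, in each of which the highest array stood apart. On log2 signals, a scale added after seeing the data, 5 of the 8 passed the critical value and no other group did, so the count depends on the scale.

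On the linear scale alone, Egr1 AF023087_s_at stood apart on CIN array 2 (2304, the nearest CIN array at 859) and on MN array 3 (1734, nearest 854), and Fos X03347cds_g_at on MN array 7 (135, nearest 97.2). Their gaps over the range were 0.507, 0.386 and 0.540 on log2, under the critical value of 0.568. On both scales, Fos X06769cds_g_at stood apart on CIN array 2 (130, nearest 77.6), which is 1 of the arrays numbered 1 and 2. Hspb1 rc_AA998683_g_at stood apart on CIN array 7 (70.8, nearest 55.6) and on MN array 3 (152, nearest 96.4). On array number 7, Egr1 U75398_s_at was highest in CINs (42.5, nearest 36.0) and in MNs (40.3, nearest 34.3), also on both scales. The difference of Hspb1 rc_AA998683_g_at was -0.80 without CIN array 7 and -0.59 without MN array 3 and remained called in both.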

How the results depend on the processing

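The member counts, 1 called between CIN and MN and 0 in each MIX comparison, were the same under all alternatives run, and Hspb1 rc_AA998683_g_at kept its direction and its call in all of them (log2 difference -0.88 to -0.50, adjusted p 0.00168 to 0.0712). Counts over the whole table moved from 40 to between 30 and 83 (CIN and MN), from 10 to between 2 and 33 (MIX and MN) and from 5 to between 1 and 68 (MIX and CIN). The shared numbers were not taken to pair the arrays: same-number correlations of CIN and MN deviations ran from -0.192 to 0.532, with 5 of 7 but not all over 0.1, and 4 of 14 arrays were closest to their own number. As an alternative, with the replicate block the member count stayed at 1 and the whole table moved from 40 to 55 calls. The 4 lists together had 1 call between CIN and MN (Nptx2) and 0 with quantile normalization, an intensity trend with a robust prior, cell number as a covariate or without the MN arrays of over 200 cells, and 0 to 1 with single arrays left out (0 without CIN array 3, 4 or 5 or MN array 1). With cell number as a covariate the lists had 1 call between MIX and MN and 4 between MIX and CIN, and 1 between MIX and CIN with only those groups fitted. Pairs of different genes that correlated numbered 14 on linear signals and 8 after subtraction of array medians, against 11.

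The sign of small, uncalled differences changed in 39 of 411 values of the 15 members for CIN and MN. For MIX, where 6 members were followed in each comparison (those with an unadjusted p under 0.05 in either, and Egr1 AF023087_s_at), it changed in 3 of 404. With array weights the differences were 0.53 (Egr1 AF023087_s_at), 0.13 and 0.050 (Nr4a1 U17254_g_at and U17254_at), 0.051 and 0.0089 (Hmox1 rc_AI179610_at and J02722cds_at) and -0.014 (Jun, MIX minus MN). With cell number as a covariate they were 0.20 (Egr1 AF023087_s_at), 0.11 and 0.11 (Nr4a1), 0.082 (Hspb1 M86389cds_s_at), 0.024 and 0.0069 (Hmox1) and -0.0075 (Fos X03347cds_g_at). Quantile normalization gave 0.0078 for Egr1 AF023087_s_at. Without the MN arrays of over 200 cells (MN 1 and 2) they were 0.048 (Egr1 AF023087_s_at), 0.070 and 0.092 (Nr4a1), 0.062 (Hspb1 M86389cds_s_at) and 0.040 (Hmox1 rc_AI179610_at). Without the arrays numbered 1 and 2 they were 0.019 (Hspb1 M86389cds_s_at), -0.16 (Fos X03347cds_g_at) and 0.065 (Fos X06769cds_g_at, MIX minus CIN). With single arrays left out they ran from -0.37 to 0.24 for Egr1 AF023087_s_at and from -0.15 to 0.15 for M18416_at, from -0.12 to 0.0043 for Hmox1 rc_AI179610_at, from -0.12 to 0.020 for Jun, from -0.15 to 0.016 and -0.17 to 0.014 for Nr4a1 and from -0.19 to 0.010 for Fos X06769cds_g_at (MIX minus CIN). The cause was not tested.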
